A study of Mus musculus with 11 samples.

Results

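The corneas of mice kept under desiccating stress and given only vehicle eye drops make up 3 of the 11 samples of this series, and all 248 genes of the NanoString mouse Inflammation panel were measured in each of them. The samples were chosen by their labels (vehicle, F1 to F3, here vehicle replicates 1 to 3), and no measured value entered the choice. They came from female C57BL/6 mice without any engineered allele in their labels. A first age label reads 3 months and a second reads 2 to 3 months, and the study's methods give its mice a range in weeks that begins at a younger age. For 5 days the mice lived in a draft at a relative humidity below 30%, drank water with scopolamine, which blocks tear secretion, and received drops of the vehicle, given in the methods as phosphate-buffered saline, 2 times per day. The other 8 samples received small molecule agonists of Trk receptors, the receptors of the neurotrophins, under the same stress, and are not compared here. No unstressed cornea was among the samples, so the levels below describe the stressed tissue and not what the stress changed. The labels name the tissue as cornea and the cells as corneal epithelia. No keratin is on the panel, so the epithelium could not be checked by its defining genes. The study calls the samples biological replicates and states that samples failing quality control had been left out, but does not state for this assay whether one sample pools several animals. The spread given below is therefore the spread between these 3 RNA samples.

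The corneal epithelium is the barrier of the eye against drying, and its cells meet osmotic and mechanical stress when tears are lacking. Such stress signals run through mitogen-activated protein (MAP) kinases and NF-kB inside the cell to cytokines, chemokines, matrix proteases and lipid mediators outside it. Resident macrophages and dendritic cells, keratocytes of the stroma and incoming leukocytes are other sources of these molecules in a cornea, and in bulk RNA fewer cells of a type and less RNA per cell cannot be told apart.

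NanoString counts molecules bound by 1 probe per gene, so a count does not scale with transcript length. Probes differ in efficiency, and these efficiencies were not available here, so an order of genes is an order of probe counts. The deposited values are log2 normalized counts, scaled by the authors on housekeeping genes. In each sample every value was a whole multiple, within 0.01 counts, of one step, which gave back the probe counts. A single probe count was worth 2.00, 2.30 and 1.64 normalized counts in vehicle replicates 1, 2 and 3, and the total probe counts were 117937, 91955 and 133098. Between replicates, the log2 values of the 248 genes correlated with a Pearson's r of 0.971 to 0.975 and a Spearman's rank coefficient of 0.944 to 0.955, across genes, which are not independent replicates.

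Background was set in each sample by 8 panel genes not known from the cornea, among them the liver genes Crp, Mbl2, C8a, C8b, C9, Kng1 and Masp2. The mean plus 2 SD of their normalized counts gave thresholds of 15.5, 35.3 and 17.5 normalized counts in the 3 samples, or 7.75, 15.3 and 10.6 probe counts. The higher threshold of vehicle replicate 2 came from Masp2 (3, 14 and 10 probe counts in the 3 samples) and C9 (7, 12 and 7). By limma, with the Benjamini-Hochberg adjustment over all genes at an adjusted p of 0.05, 128 of the 248 genes (51.6%) lay above the threshold and 62 (25%) below it, 5 of these being background genes. The remaining 58 genes, 3 of them background genes, could not be told apart from the threshold. A gene below the threshold is one at the level of genes that a cornea is not known to make, which is not a proof of absence. The standard error of the difference from the threshold was 0.448 on the log2 scale for every gene, most of it from the threshold, which all genes of a sample share. The genes are therefore not independent, which the limma p-values do not allow for, so these p-values may be too small. Without empirical Bayes moderation across genes, 109 genes were above the threshold and 12 below it. Without any test, 133 genes were over the threshold in all 3 samples and 75 in none. With the 8 background genes left out, 128 of 240 genes (53.3%) were above it by limma. Each count of list members below is to be read beside this share.

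**Figure D1:**
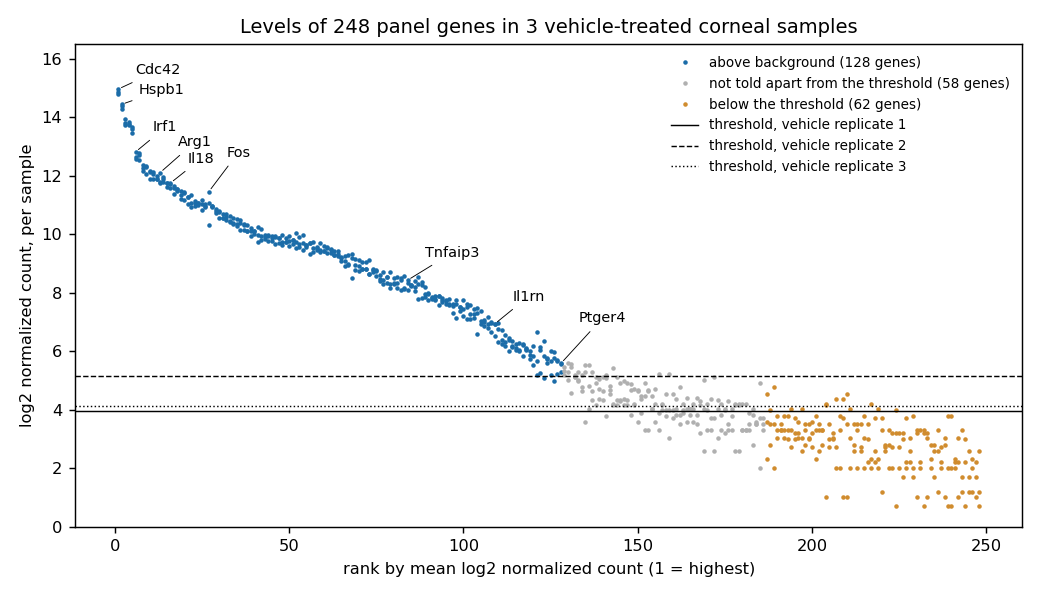
The log2 normalized counts of the 248 genes are plotted against their rank by mean level, with 3 points per gene (1 per vehicle sample), and lines mark the background threshold of each sample. The 128 genes above background (blue) span 9.39 on the log2 scale from Cdc42 to Ptger4, and the points of a gene spread out as the levels approach the thresholds.

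Most of the signal came from molecules that work inside the cell. Among 88 intracellular signalling proteins and transcription factors of the panel, 77 (87.5%) were above background, with a median over the genes of 746 normalized counts, and they held 80.7% to 81.3% of all normalized counts in a sample. Among 43 surface and endosomal receptors 14 (32.6%) were above background, with a median of 26.4 normalized counts. Among 58 cytokines, chemokines and growth factors only 11 (19.0%) were, with a median of 10.2 normalized counts. These 11 ligands were Il18, Tgfb1, Pdgfa, Il1a, Areg, Csf1, Ccl21a, Il1rn, Il15, Tgfb3 and Tnf. The 3 groups were drawn up after the values had been seen and are a description. Of 5 genes with a mean of over 10000 normalized counts and 37 with 1000 to 10000, all were above background, as were all 68 between 100 and 1000, whereas 18 of the 138 genes under 100 were.

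Small GTPases that switch the actin cytoskeleton stood at the head of the ranking. Cdc42, the small GTPase that sets cell polarity and filopodia, was the highest gene with 31824, 28331 and 29989 normalized counts in vehicle replicates 1, 2 and 3, or 14.87 ± 0.08 on the log2 scale (SD, n = 3). It was the highest in each sample and alone held 13.4% to 13.7% of the normalized counts. Hspb1, a small heat shock protein that is phosphorylated downstream of p38 and protects actin filaments, came next with 22178, 21128 and 19959 normalized counts. Gnb1, a beta subunit of the heterotrimeric G proteins, had 15856, 13684 and 14352, Rac1, the GTPase of lamellipodia, 14647, 13679 and 13968, and Rhoa, the GTPase of stress fibres, 12885, 12384 and 11381 normalized counts. These 5 genes kept their order in all 3 samples, although Gnb1 and Rac1 were nearly equal in vehicle replicate 2, and all 5 were above Irf1, the gene of rank 6, in every sample. Together they held 41.0% to 42.1% of the normalized counts of a sample, and the 25 highest genes held 73.3% to 73.6%.

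Ranks 6 to 25 mixed transcription factors, kinases and nuclear proteins. Irf1, a transcription factor induced by interferon, had 7195, 6407 and 6149 normalized counts, and Hmgn1, a nucleosome-binding protein, had 6997, 5997 and 6700.1. Their mean log2 normalized counts were 12.68 ± 0.12 and 12.68 ± 0.11, and Irf1 was the higher in 2 of 3 samples, so this pair could not be ordered. Gnas, the stimulatory G protein alpha subunit, was at 12.25 on the log2 scale, Tgfbr1, the type I receptor of TGF-beta, at 12.22, Stat3, the signal transducer of interleukin 6 type cytokines, at 12.05, and Hif1a, the transcription factor of low oxygen, at 12.03. Map2k1 (11.91), Arg1 (11.88), Hmgb1 (11.88), Mapk3 (11.70), Il18 (11.68), Nfe2l2 (11.53), Tollip (11.52), Map3k5 (11.35), Bcl2l1 (11.34), Map3k1 (11.18), Oasl1 (11.11), Gnaq (11.05) and Map3k7 (11.00) were also among the 25 highest by mean log2 normalized count. Neighbours in this order were often closer than their spread: 12 of the 24 neighbouring pairs kept their order in all 3 samples. The last place was the least settled, since Ifit3 (10.98) replaced Map3k7 when vehicle replicate 1 was left out, and Fos (10.94) entered when vehicle replicate 2 was left out.

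In the actin and small GTPase list, 8 of 9 genes were above background. Below the GTPases came Rock2, the kinase through which Rhoa contracts the cell (1459, 1235 and 1289 normalized counts), Cfl1, cofilin, which severs actin filaments (1263, 1116 and 1104), Ptk2, the focal adhesion kinase (755, 657 and 743), Limk1, the kinase that inactivates cofilin (216, 173 and 146), and Ppp1r12b, a myosin phosphatase subunit (72.1, 94.5 and 78.9). Myl2, the myosin light chain of heart and slow muscle, was below the threshold with 2, 7 and 5 probe counts.

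The Ras to ERK chain was above background in all of its 9 members. From the membrane inward, the adaptors Shc1 and Grb2 had 925, 848 and 857 and 833, 705 and 676 normalized counts, the GTPase Hras1 238, 219 and 215, and the kinase Map2k1, which activates ERK, 4074, 3766 and 3743. Mapk3, which encodes ERK1, had 3415, 3476 and 3123 normalized counts. Mknk1, a kinase that ERK activates, had 304, 226 and 327 normalized counts. Elk1, the transcription factor at the end of the chain, was the lowest with 54.1, 48.4 and 52.6 normalized counts (adjusted p = 0.00653 from limma), and it no longer passed without vehicle replicate 1 or without vehicle replicate 3.

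Of the p38 and JNK stress kinase list, 12 of 14 genes were above background and none was below it. The upstream kinases Map3k5 (ASK1), Map3k1 (MEKK1) and Map3k7 (TAK1) lay close together at 2877, 2379 and 2618, 2480.5, 2077 and 2444 and 2284, 1805 and 2077 normalized counts. The next tier differed more, with 1872, 1708 and 1788 for Map2k4, which activates JNK, and 110.1, 145 and 122 for Map2k6, which activates p38. The p38 gene Mapk14 (1666, 1498 and 1498) and its substrate kinase Mapkapk2 (1642, 1535 and 1432) were near each other, and Mapk8 (JNK1) had 765, 708 and 737 normalized counts. Map3k9, another upstream kinase, was the lowest above background at 64.1, 82.97 and 87.2. Hspb2, the muscle relative of Hspb1, had 32.03, 39.2 and 31.2 normalized counts and could not be told apart from the threshold, nor could Mapkapk5.

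Heterotrimeric G proteins divided into high and near-background members. Besides Gnb1, Gnas had 5255, 4863 and 4562 and Gnaq 2248, 2005 and 2131 normalized counts, and Rapgef2, an exchange factor of Rap GTPases, had 1317, 1127 and 1259.8. The protein kinase C genes Prkcb (370.4, 221 and 314) and Prkca (218, 226 and 234) were lower, and Prkcb was low in vehicle replicate 2. Plcb1, a phospholipase C that Gq activates, was below the threshold with 5, 1 and 8 probe counts, as was Pik3c2g, while Gngt1, the gamma subunit of rod photoreceptors, and Fxyd2 could not be told apart from it.

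Of 19 further transcription factors 16 were above background. Hif1a led with 4513, 3801 and 4281 normalized counts. Nr3c1, the glucocorticoid receptor, was among the steadiest genes of the panel with 1932, 1973 and 1987 normalized counts, an SD of 0.02 on the log2 scale. Its neighbour in level Fos, an immediate early gene that partners Jun, was among the least steady with 2805, 1275 and 2143, vehicle replicate 2 being the low sample. Jun had 987, 767 and 862, Atf2 1423, 1122 and 1327, Myc 983, 867 and 931 and its partner Max 685, 691 and 781 normalized counts. Cebpb, a factor of acute phase and differentiation genes, had 615, 482 and 536, Ddit3 (CHOP), a factor of endoplasmic reticulum stress, 166, 182 and 184, and Creb1, the lowest above background, 76.1, 73.8 and 57.6 normalized counts. Among the MEF2 genes, Mef2d (889, 811 and 901) and Mef2a (829, 643 and 827) were above background, Mef2c could not be told apart from the threshold (11, 9 and 9 probe counts) and Mef2b was below it (3, 3 and 7).

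The Nrf2 list, the response to oxidants, was above background in all 5 members. Nfe2l2, which encodes Nrf2, had 3213, 2648 and 3033 normalized counts and Keap1, the adaptor that sends Nrf2 to degradation, 997, 844 and 801. The small Maf partners of Nrf2 followed in the order Mafk (849, 675 and 740.1), Mafg (442, 378 and 424) and Maff (386, 350.3 and 339). The ratio of Nfe2l2 to Keap1 was 3.37-fold between probes, in the same direction in 3 of 3 samples.

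**Figure D2:**
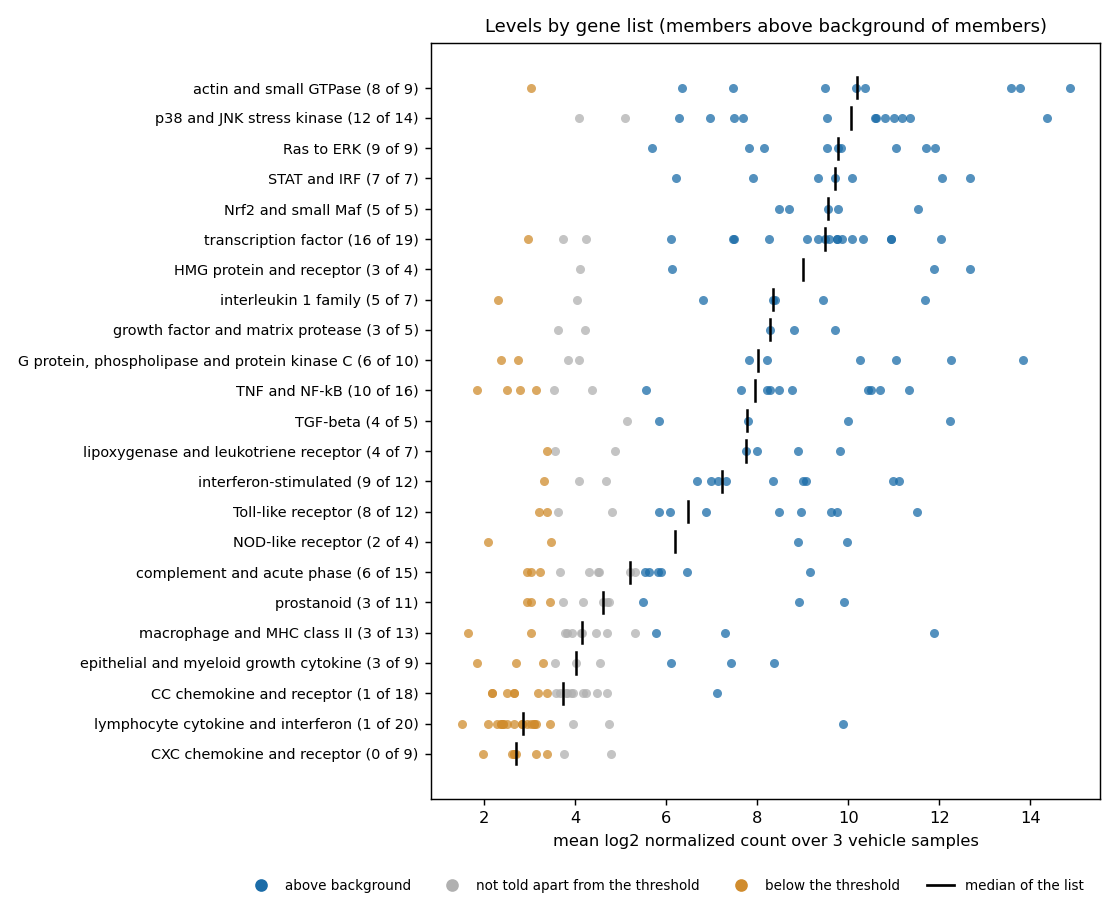
Each point is the mean log2 normalized count of 1 gene over the 3 vehicle samples, in rows by gene list, with the 8 background genes left out. Black bars mark the median of a list, and the row labels give the members above background of all members. Kinase, STAT and Nrf2 lists lie to the right, and chemokines and lymphocyte cytokines lie at the left edge.

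STAT and IRF factors, which carry the signals of interferons and interleukins to the nucleus, were above background in 7 of 7 genes. Stat3 had 4585, 3773 and 4444 normalized counts. Stat2, which acts in the response to type I interferon, had 693, 625 and 629.9. Irf7, which amplifies type I interferon, had 947, 821 and 763, and Irf5 had 252, 214 and 250.0 normalized counts. Irf3, the factor that starts interferon transcription, was the lowest with 72.1, 80.7 and 70.7 normalized counts, whereas Irf1 had an 88.3-fold higher count.

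Interferon-stimulated genes, whose products block the replication of viruses, were above background in 9 of 12 cases. Oasl1, an inhibitor of Irf7 translation, had 2573, 2129.6 and 1970.2 normalized counts, and Ifit3, a partner of Ifit1 in RNA binding, 1936, 2019 and 2094. Mx1, a gene of the dynamin-like GTPases, had 511, 620.0 and 498 normalized counts, and Mx2 (7, 9 and 10 probe counts) could not be told apart from the threshold. These are counts of RNA and do not show that a working protein is made. In the mean over the 3 samples, Mx1 was at least 25.4-fold higher than Mx2 between probes. Here and in the other ratios given as a bound, the higher of the gene's value and the sample's threshold stands for a gene not above background. Each such bound is a mean over the 3 samples on the log2 scale, and single samples can lie under it. Oas1a, which makes the activator of RNase L, had 360.4, 581 and 639.7, Ifit1 348, 272 and 360.2, and Oas2 136, 154 and 192 normalized counts. Ifi44 (96.1, 159 and 178), Ifit2 (116, 129 and 133) and Ifi27l2a (80.1, 108 and 125) closed the group. Iigp1, an immunity-related GTPase of the response to interferon gamma, could not be told apart from the threshold (28.03, 25.4 and 23.02), and Hsh2d was below it. The interferons themselves did not stand out: Ifna1 had 4, 5 and 4, Ifnb1 2, 3 and 3 and Ifng 6, 8 and 10 probe counts, the first 2 below the threshold and Ifng not told apart from it. Cxcl10, a chemokine that interferons induce, had 4, 2 and 1 probe counts and ranked 244 of 248, and Cxcl9, another one, had 5, 6 and 5.

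Many interferon-stimulated genes carry a control element in their promoter, the interferon-stimulated response element. Shown for genes from rank 22 to rank 244 of 248 are the promoters of 4 members and of Cxcl10. They span 250 bases before to 50 after the start site, from RefSeq on GRCm38.p6, and capitals mark each match to GAAANNGAAA on either strand, in which N is any base and overlapping matches were counted. A promoter was held for 7 of the 12 listed genes, of which 3 had a match, while 1131 of 32851 promoters of the same length (3.44%) had one. The 3 with a match and Oasl1 are shown, whereas Ifi44, Ifit2 and Hsh2d, which had no match, are not.
Ifit3, 1936, 2019 and 2094 normalized counts, chr19:34583279-34583578, plus strand: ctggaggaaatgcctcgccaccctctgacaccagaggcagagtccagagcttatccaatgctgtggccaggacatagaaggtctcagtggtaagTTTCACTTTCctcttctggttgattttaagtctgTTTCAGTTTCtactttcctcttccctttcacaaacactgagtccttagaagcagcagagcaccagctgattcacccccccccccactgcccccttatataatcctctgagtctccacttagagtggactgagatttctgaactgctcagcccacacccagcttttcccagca
Ifit1, 348, 272 and 360.2 normalized counts, chr19:34640639-34640938, plus strand: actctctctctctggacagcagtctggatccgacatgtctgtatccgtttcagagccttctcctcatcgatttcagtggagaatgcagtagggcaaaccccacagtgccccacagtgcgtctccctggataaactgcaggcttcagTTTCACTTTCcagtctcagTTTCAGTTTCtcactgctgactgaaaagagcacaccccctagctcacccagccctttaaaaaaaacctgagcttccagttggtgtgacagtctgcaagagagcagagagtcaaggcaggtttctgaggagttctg
Oas1a, 360.4, 581 and 639.7 normalized counts, chr5:120907476-120907775, minus strand: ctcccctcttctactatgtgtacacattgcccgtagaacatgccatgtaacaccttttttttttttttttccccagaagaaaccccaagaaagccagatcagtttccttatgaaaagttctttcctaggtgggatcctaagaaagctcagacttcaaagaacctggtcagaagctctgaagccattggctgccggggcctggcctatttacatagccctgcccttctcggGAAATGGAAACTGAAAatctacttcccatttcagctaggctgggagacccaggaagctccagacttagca
Oasl1, 2573, 2129.6 and 1970.2 normalized counts, chr5:114922990-114923289, plus strand: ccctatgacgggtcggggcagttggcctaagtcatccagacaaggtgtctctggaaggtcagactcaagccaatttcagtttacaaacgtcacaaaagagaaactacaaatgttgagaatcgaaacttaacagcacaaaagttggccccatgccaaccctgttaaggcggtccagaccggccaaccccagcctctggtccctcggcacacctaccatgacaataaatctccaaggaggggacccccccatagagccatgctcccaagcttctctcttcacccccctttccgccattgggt
Cxcl10, 8.01, 4.61 and 1.65 normalized counts, chr5:92348840-92349139, minus strand: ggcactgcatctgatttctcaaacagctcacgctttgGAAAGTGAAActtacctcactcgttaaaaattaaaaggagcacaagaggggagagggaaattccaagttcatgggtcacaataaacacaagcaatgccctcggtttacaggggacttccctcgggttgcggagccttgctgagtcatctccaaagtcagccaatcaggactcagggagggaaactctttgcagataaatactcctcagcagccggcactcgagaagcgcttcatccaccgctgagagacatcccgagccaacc
In these windows Ifit3, Ifit1 and Oas1a each held 2 matches, those of Oas1a overlapping, and Cxcl10 held 1. Oasl1, the highest of the listed genes, held none. A match is a description of letters, and its absence says only that these letters are not in this window.

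The Toll-like receptor list holds sensors of microbial molecules and their adaptors. In it, 8 of 12 genes (66.7%) were above background, beside 53.3% of the 240 genes that are not background genes. Of the receptors on the cell surface, Tlr1, Tlr2, Tlr4 and Tlr5 were above it, whereas of those in endosomes only Tlr3 was. Tollip, which restrains Toll-like receptor signals, had 2981, 2826 and 2999.7 normalized counts and Myd88, the adaptor of nearly all these receptors, 1041, 739.8 and 844. Tlr4, the receptor for lipopolysaccharide, had 795, 799.8 and 765 and its co-receptor Ly96 (MD-2) 372, 323 and 373. Tlr5, the receptor for flagellin, had 575, 493 and 437 normalized counts. The receptor for double-stranded RNA, Tlr3, was lower at 102, 127 and 125. Tlr4 exceeded Tlr3 in 3 of 3 samples, by a mean of 6.70-fold between probes. Tlr2 (66.1, 66.8 and 69.1) and Tlr1 (72.1, 57.6 and 46.05), which pair to bind lipopeptides, were the lowest above background, and Tlr1 lost its call without vehicle replicate 1. Tlr7, a receptor for single-stranded RNA, was low in vehicle replicate 1 (6, 20 and 24 probe counts) and could not be told apart from the threshold, nor could Tlr9. Tlr6 on the surface and Tlr8 in endosomes were below it.

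Cytosolic sensors were uneven. Nod1, the sensor of a peptidoglycan fragment of mainly Gram-negative bacteria, had 1153, 986 and 889.7 normalized counts and its kinase Ripk2 527, 447 and 452. Nod2 had 6, 10 and 3 probe counts and Nlrp3, the sensor of the best known inflammasome, 5, 1 and 2, and both were below the threshold. Nod1 exceeded Nod2 in 3 of 3 samples, by a mean over the samples of at least 47.3-fold between probes.

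In the TNF and NF-kB list 10 of 16 genes (62.5%) were above background, beside 53.3% of the 240 genes that are not background genes, and these were the intracellular members and Tnf. Bcl2l1, an inhibitor of cell death that NF-kB induces, had 2745, 2312 and 2761 normalized counts. The NF-kB subunits Rela (1759.8, 1505 and 1733) and Nfkb1 (1579.6, 1355 and 1403) exceeded Relb (218, 191 and 194), Rela by 8.28-fold between probes. Birc2 (1491, 1288 and 1342), Traf2 (442, 445 and 419), Ripk1 (416, 316 and 344) and Tradd (336, 267 and 296), which assemble at the TNF receptor, and Tnfaip3 (A20), which dismantles that complex (344, 320.4 and 273), were above background in every sample. Tnf had 54.1, 62.2 and 31.2 normalized counts (27, 27 and 19 probe counts), vehicle replicate 3 being the lowest (adjusted p = 0.0146 from limma), and it no longer passed without vehicle replicate 1 or without vehicle replicate 3. The ligands Lta, Fasl, Cd40lg and Tnfsf14, made by lymphocytes among other cells, were below the threshold, while Ltb and the receptor Cd40 could not be told apart from it.

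The interleukin 1 family held the highest cytokine of the panel. Il18, which epithelia store as a precursor, had 3441, 3075 and 3330.3 normalized counts and ranked 16 of 248, whereas Il18rap, a chain of its receptor, had 2, 2 and 4 probe counts and was below the threshold. Il1a, an alarmin of epithelial cells, had 414, 318 and 285 normalized counts, Il1rn, the receptor antagonist, 122, 122 and 92.1, and Il1b, the form made by activated myeloid cells, 16.02, 18.4 and 14.8. Il1a exceeded Il1rn by a mean of 3.01-fold and Il1rn exceeded Il1b by a mean of at least 5.18-fold between probes. Each kept its direction in 3 of 3 samples, and Il1b could not be told apart from the threshold. The receptor chains Il1r1 (721, 709.9 and 653) and Il1rap (324, 286 and 370.0) were above background.

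Other cytokines lay near background with few exceptions. Among the epithelial and myeloid growth cytokines, Il6ra, the receptor of interleukin 6 (360.4, 320.4 and 316), Csf1, the growth factor of macrophages (196, 138 and 184), and Il15, which sustains natural killer cells (66.1, 64.5 and 77.3), were above background. Il6 itself had 2, 3 and 6 probe counts and was below the threshold together with Il7 and Csf2, while Tslp, an epithelial cytokine, Il11 and Csf3 could not be told apart from it. Csf3 ranged from 2 probe counts in vehicle replicate 1 to 13 in vehicle replicate 2. Of the 20 lymphocyte cytokines and interferons with their receptors, 17 were below the threshold and only Il10rb, a receptor chain that many tissues carry, was above it (1001, 869 and 970.3 normalized counts). Il4 was the lowest gene of the panel with 3, 1 and 1 probe counts, and Il2, Il10, Il13 and Il17a had at most 8 in any sample. Il23r, a receptor of T helper 17 cells, was over the threshold in all 3 samples (20.02, 39.2 and 24.7 normalized counts) without passing the test (adjusted p = 0.499 from limma).

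Chemokines and their receptors lay at or near background. None of the 9 CXC chemokines and receptors was above it by limma, nor at an unadjusted p of 0.05, and Cxcr4 alone was when lymphocyte cytokines served as background genes. Of the 9, 7 were below: the neutrophil attractants Cxcl2 (2, 4 and 4 probe counts), Cxcl3 (3, 2 and 5) and Cxcl5 (3, 3 and 4), Cxcl9, Cxcl10 and the receptors Cxcr1 and Cxcr2. Cxcl1 (8, 4 and 10) and Cxcr4 (14, 20 and 10) could not be told apart from the threshold. Of 18 CC chemokines and receptors 1 was above background, namely Ccl21a, which guides dendritic cells into lymphatic vessels (166, 122 and 132 normalized counts). Ccl21a has nearly identical copies in the mouse genome that its probe may not separate, and Ifit3 and Oas1a have close relatives for which the same holds. Ccr2, the receptor of monocytes, was also above background when vehicle replicate 2 was left out. Ccr2 had 17, 6 and 22 probe counts, with vehicle replicate 2 the low sample. The monocyte attractants Ccl2 (9, 4 and 12) and Ccl7 (10, 13 and 11), Ccl5 (11, 13 and 6) and Ccl20 (5, 9 and 8) could not be told apart from the threshold, and Ccl4, Ccl8, Ccl11 and Ccl24 were below it. A level of 3 probe counts or fewer, the limit that a count of 0 allows, was met by 44, 26 and 19 genes in vehicle replicates 1, 2 and 3, and this limit covers counting error only.

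Complement was low apart from a regulator. Cd55, the membrane protein that speeds the decay of the C3 convertases, had 577, 549 and 594 normalized counts. C1s, a protease of the classical pathway, had 84.1, 76.1 and 105, C3, on which all pathways meet, 64.1, 53.01 and 59.2, C1qa and C1qb, chains of C1q that macrophages make, 38.04, 71.4 and 65.8 and 52.1, 36.9 and 50.98, and C3ar1, the receptor of C3a, 36.04, 50.7 and 64.1 normalized counts. These 6 of 15 genes, the background genes left out, were above background, but 3 were when vehicle replicate 1 was left out and 2 when vehicle replicate 3 was, and Cd55 and C1s were the members that passed in each case. C1ra, the partner of C1s, did not pass the test (40.04, 43.8 and 36.2 normalized counts, adjusted p = 0.0559 from limma), nor did C4a (24.02, 43.8 and 47.7, adjusted p = 0.0945). Cfb, C2, Masp1 and C6 could not be told apart from the threshold, and C7, Cfd and Hc, which encodes C5, were below it.

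Among lipid mediator genes, 3 of 11 in the prostanoid list and 4 of 7 in the lipoxygenase and leukotriene receptor list (57.1%) were above background, the latter share being near the 53.3% of the 240 genes that are not background genes. Pla2g4a, the phospholipase that frees arachidonic acid, had 907, 1005 and 952 normalized counts. Ptgs1, the constitutive cyclooxygenase, had 476, 560.1 and 431, and Ptgs2, the inducible one, 10.01, 11.5 and 19.7, which could not be told apart from the threshold. The mean ratio between probes was at least 22.0-fold, in the same direction in 3 of 3 samples. Alox15 (925, 945 and 822) and Alox12 (531, 454 and 452), lipoxygenases found in epithelia, exceeded Alox5, the leukotriene-forming enzyme of leukocytes (36.04, 27.7 and 24.7), which could not be told apart from the threshold. Alox12 was higher than Alox5 by a mean of at least 15.1-fold, and Alox15 was on average 1.88 times Alox12, between probes. The receptors of leukotriene B4, Ltb4r1 (290.3, 247 and 229) and Ltb4r2 (214, 224 and 206), were both above background and differed by 1.18-fold between probes, while the cysteinyl leukotriene receptors Cysltr1 and Cysltr2 were not. Ptger4, the prostaglandin E2 receptor EP4, was the lowest gene above background, with 48.05, 39.2 and 47.7 normalized counts (24, 17 and 29 probe counts, adjusted p = 0.0228 from limma). It was over the threshold in each sample and no longer passed without vehicle replicate 1, without vehicle replicate 3, or with a threshold at the mean plus 3 SD or the median plus 3 MAD of the background genes. Of the other EP receptors, Ptger1 (13, 9 and 20 probe counts) and Ptger3 (15, 15 and 11) could not be told apart from the threshold and Ptger2 (1, 9 and 8) was below it, with 1 probe count in vehicle replicate 1.

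**Figure D3:**
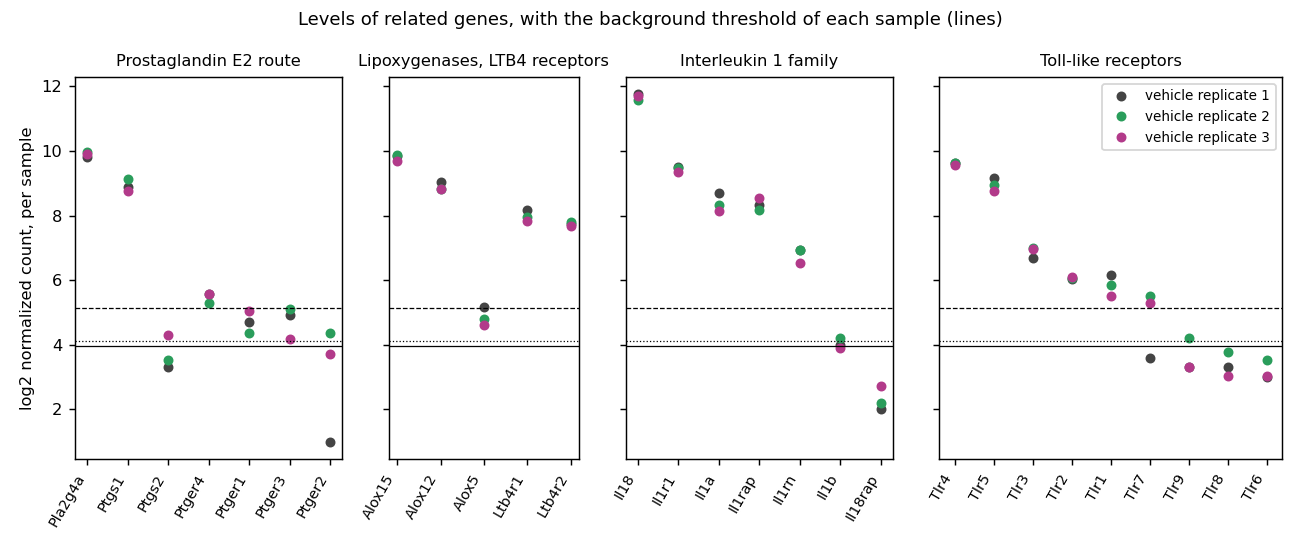
Log2 normalized counts of related genes are shown in the 3 vehicle samples, with the background threshold of vehicle replicates 1, 2 and 3 as solid, dashed and dotted lines. Pla2g4a, Ptgs1, Alox15, Alox12, Il18 and Tlr4 lie well above the lines, whereas Ptgs2, Il1b and Tlr8 lie near or under them.

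Among TGF-beta genes, the receptor Tgfbr1 had 5097, 4285 and 5021 normalized counts and ranked 9. Of the ligands, Tgfb1 had 1213, 855 and 1011, Tgfb3 36.04, 50.7 and 102 and Tgfb2 36.04, 34.6 and 34.5 normalized counts. Tgfb1 exceeded both Tgfb2 and Tgfb3 in 3 of 3 samples, by means of at least 28.8-fold and of 17.8-fold between probes. Tgfb3 was highest in vehicle replicate 3 and no longer passed without that sample, and Tgfb2 could not be told apart from the threshold although its 3 values nearly coincided. Smad7, the inhibitor that TGF-beta induces, had 236, 237 and 191. Pdgfa, a growth factor for fibroblasts (1005, 703 and 831), and Areg, a ligand of the EGF receptor (376, 277 and 289), were above background. Mmp3, stromelysin, had 402, 403 and 561 normalized counts with vehicle replicate 3 the highest. It exceeded Mmp9, a gelatinase (5, 8 and 6 probe counts), by a mean of at least 21.2-fold between probes. Mmp9 could not be told apart from the threshold. Hmgb1, a chromatin protein that acts as an alarmin once released, had 3799.8, 3549 and 3931 normalized counts, 53.5 times Hmgb2, and Ager, a receptor of Hmgb1, could not be told apart from the threshold.

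In the macrophage and MHC class II list 3 of 13 genes were above background: Arg1, H2-Eb1 and Tyrobp. Arg1, arginase, ranked 13 with 4392, 3540.2 and 3414 normalized counts. Nos2, the inducible nitric oxide synthase that competes with it for arginine, could not be told apart from the threshold (20.02, 34.6 and 24.7 normalized counts). The mean ratio of Arg1 to Nos2 between probes was at least 145-fold. Arg1 is made by keratinocytes and other cells as well as by macrophages, and no other gene of the list came near its level. Of 8 macrophage markers 4 were above background (Tyrobp, C1qa, C1qb and C3ar1). This share was near the 53.3% of the 240 genes that are not background genes. Mrc1, Cd163 and Itgb2 could not be told apart from the threshold, and Trem2 was below it with 1, 2 and 2 probe counts. The summed level of the 8 markers was 222, 307 and 357 normalized counts in vehicle replicates 1, 2 and 3. Without vehicle replicate 3 none of the 4 was above background, and without vehicle replicate 1 C1qb and C3ar1 were not. H2-Eb1, a chain of MHC class II, had 174, 141 and 155 normalized counts, and Cd86, a costimulatory molecule, could not be told apart from the threshold.

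None of 5 T cell markers was above background by limma, nor at an unadjusted p of 0.05. Cd4 (8, 3 and 7 probe counts), Cd40lg, Il2 and Il17a were below the threshold and Ifng was not told apart from it, and the summed level of the 5 was 41.5 to 47.7 normalized counts. Neither neutrophil marker, Cxcr1 or Cxcr2, was above background. Of 5 genes listed for fibroblasts and stroma, Tcf4 (302, 304 and 306), C1s and Tgfb3 were above background. Twist2 and C1ra were not told apart from the threshold. The summed level of the 5 was 472, 489 and 566 normalized counts, most of it from Tcf4. The list is not specific to stroma, so this sum is no measure of stromal RNA. Flt1 for endothelium and Gngt1 for photoreceptors were not told apart from the threshold, and Myl2 for muscle was below it. Of 6 genes that epithelia make, among other cells, 5 were above background (Il18, Alox15, Alox12, Areg and Il1rn), Tslp was not told apart from the threshold, and the summed level was 5410, 4890 and 5010 normalized counts.

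The threshold itself ran through a dense stretch of genes. The genes just over it by mean log2 difference were Il11 (20.02, 34.6 and 18.1 normalized counts), Cfb (20.02, 29.96 and 19.7), C2 (18.02, 20.7 and 31.2), Ccl7 (20.02, 29.96 and 18.1) and Cd163 (14.01, 25.4 and 29.6). Those just under it were Ltb (26.03, 18.4 and 18.1), Masp1 (12.01, 25.4 and 24.7), Mef2c (22.02, 20.7 and 14.8), Ccl5 (22.02, 29.96 and 9.87) and Flt1 (10.01, 25.4 and 24.7). None of these 10 passed the test in either direction. Of the 58 genes not told apart from the threshold, 5 were over it in all 3 samples (C1ra, Mrc1, C4a, Hspb2 and Il23r), 19 in 2, 18 in 1 and 16 in none.

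The spread between the samples was small for most genes above background. Their median SD was 0.137 on the log2 scale (quartiles 0.088 and 0.200), and it was 0.108 for the 25 highest genes. For the 120 genes not above background it was 0.568. Counting error alone gives a median SD of 0.082 to the genes above background and of 0.634 to the others, and the measured SD was 1.71 and 0.910 times the counting SD in the median gene. Thus 52 of the 128 genes above background spread over more than 2 times the counting SD and 32 spread less than it, with 3 samples behind each SD. Among the steadiest genes above background were Tcf4 (8.25 ± 0.01), Nr3c1 (10.94 ± 0.02), Tlr2 (6.07 ± 0.03) and Tlr4 (9.62 ± 0.04), all in log2 normalized counts.

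**Figure D4:**
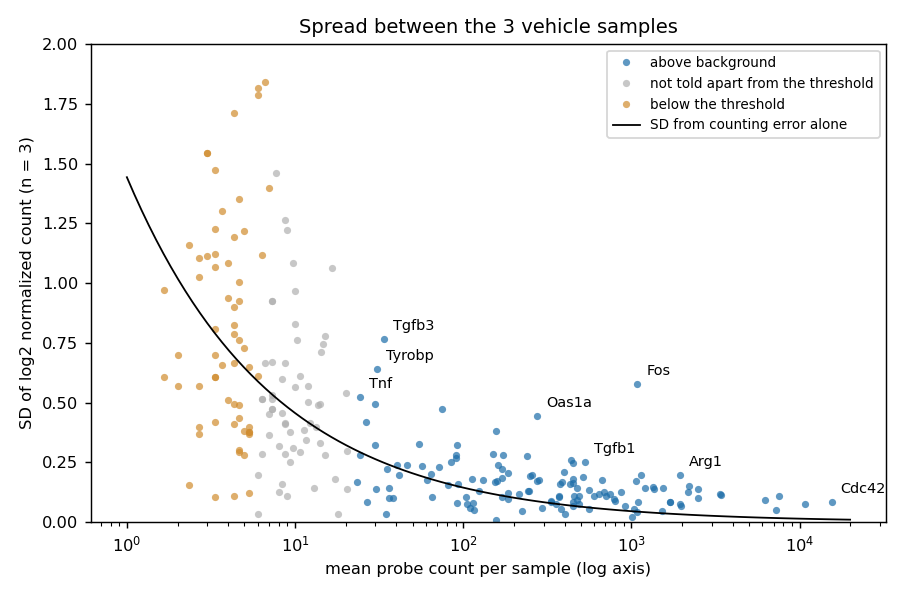
The SD of the log2 normalized counts over the 3 vehicle samples is plotted against the mean probe count (log axis) for the 248 genes, with a curve for the SD that counting error alone would give. Most genes above background lie under 0.2 and Fos stands far above the curve at its level.

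Only 4 genes above background had an SD over 0.5 on the log2 scale: Tgfb3 (0.76), Tyrobp (0.64), Fos (0.58) and Tnf (0.53). Without vehicle replicate 2 there were 7 such genes, and Fos (11.45 and 11.07 in vehicle replicates 1 and 3) was not among them. Tyrobp, the signalling adaptor of macrophage receptors, had 17, 25 and 50 probe counts, with vehicle replicate 3 the highest. Tgfb3 had 18, 22 and 62, with vehicle replicate 3 again the highest. Fos is the case with depth behind it, 1401, 553 and 1303 probe counts, a spread of 12.1 times the counting SD. After these, the highest SDs belonged to C1qa, Ifi44, Oas1a, C3ar1, Prkcb and Ifi27l2a. Of these 10 genes, 7 were lowest in vehicle replicate 1 and 6 were highest in vehicle replicate 3.

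This ran against the rest of the panel, since 80 of the 128 genes above background were highest in vehicle replicate 1, 17 in vehicle replicate 2 and 31 in vehicle replicate 3. After the median shift of each sample over these 128 genes was taken out, the 3 samples were highest in 40, 41 and 47 genes. On that scale the 9 interferon-stimulated genes above background were lowest in vehicle replicate 1 in 7 cases and highest in vehicle replicate 3 in 5, with median differences from the gene mean of -0.20, 0.10 and 0.16 on the log2 scale. The other 2 were Oasl1, highest in vehicle replicate 1, and Ifit1, lowest in vehicle replicate 2. The 8 macrophage markers were lowest in vehicle replicate 1 in 6 cases and never highest there, with median differences of -0.58, 0.21 and 0.32. Vehicle replicate 1 was thus low for both lists. It also had the most genes at or under 3 probe counts (44, against 26 and 19) and the lowest mean of the background genes (8.76 normalized counts, against 14.4 and 10.5), and 4 of the 8 macrophage markers were not above background. The part of these values, or of the amount of macrophage RNA, in either list was not tested, and 3 samples allow no test of 1 against the others.

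**Figure D5:**
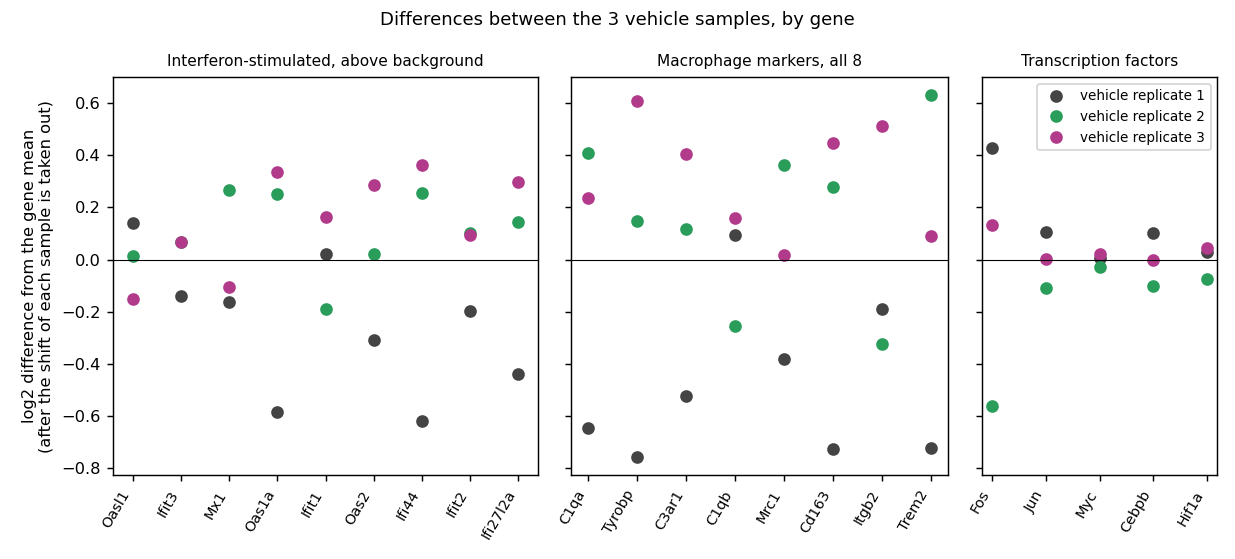
Points give the log2 difference of each vehicle sample from the mean of the gene, after the median shift of the sample over the 128 genes above background was taken out, for interferon-stimulated genes above background, the 8 macrophage markers and 5 transcription factors. Vehicle replicate 1 (dark grey) is lowest for 7 of 9 interferon-stimulated genes and 6 of 8 macrophage markers, while for Fos it is the highest.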

How the data were processed

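RNA of 3 vehicle-treated corneal samples was counted on the mouse Inflammation panel of NanoString. In ROSALIND, the authors scaled each lane to its housekeeping probes (geometric mean), and they deposited log2 normalized counts of 248 genes in 2 tables, in which the vehicle values were identical. Housekeeping and control probes were not used here. The tables' columns of the authors' own comparisons (mean, log2 fold change, p-values) were not used. Values were taken as deposited, and no value was dropped or imputed. Total probe counts of 91955 to 133098 per sample were recovered from the steps of the values.

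Each gene's log2 normalized count minus the log2 of its sample's background threshold was fitted by limma 3.58.1 in R 4.3.3, with an intercept only and moderated by eBayes, with the Benjamini-Hochberg adjustment over 248 genes. The estimated prior degrees of freedom were infinite, so all genes shared 1 standard error. That estimate treats the genes as independent, although the error of the thresholds is common to all of them. The fit was also run on simulated data in which the values followed the threshold of each sample. The error of the thresholds was absent there, so that run cannot judge it. Tables were handled in Python 3.11.15 with numpy 2.4.6 and pandas 2.3.3, and figures were drawn with matplotlib 3.10.9. Gene lists were described by counts and medians without a test of their own. SDs, ranks and ratios between genes have no test. Ratios and their bounds are means over the 3 samples on the log2 scale, and the bounds were added after the values were seen.

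The samples were chosen by their labels alone, although earlier results of these data were known when samples and gene lists were chosen. Genes named by rule were the 25 highest by mean log2 normalized count, the highest and lowest members above background of each list and members that share a role, the 10 highest and 5 lowest SDs above background, the 5 genes on either side of the threshold, the background genes and the cell type markers. Other list members, and the groups of ligands, receptors and intracellular proteins, were picked once their values were known. Alternatives were other thresholds and background genes, other variance priors, a filter, a pseudocount, other scalings and leaving out each sample.

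Some items that the naming rule covers are not reported here. Genes carry the symbols of the tables, and 247 of 248 gene IDs were found in RefSeq. For Crp, Elk1 and Nos2 the table's ID belongs to another gene, while the panel's probe transcript belongs to the gene of that symbol, which is used here. No coordinates are given for probes, since the panel names no genome build.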

Additional observations from a re-analysis of the deposited data

How the results depend on the processing

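The number of genes above background, 128, ranged from 109 (without empirical Bayes moderation) to 143 (lymphocyte cytokines as background genes), and from 119 to 136 when 1 sample was left out. The 62 genes below the threshold were 12 without empirical Bayes moderation, where 2 degrees of freedom per gene remain, and 26 among the 211 genes with a mean log2 of at least 3, which leaves out the lowest genes. Without vehicle replicate 1, 2 or 3 they were 45, 56 and 45, and 42 to 75 under the other settings. Of the 25 highest genes, 24 or 25 were shared under every scaling, summary and left-out sample. The median SD of genes above background, 0.137, ranged from 0.104 to 0.150. The 4 genes with an SD over 0.5 were 7 when samples were scaled to equal totals and 3 to 7 when 1 sample was left out. Lists whose number above background moved by over 1.5 times were complement (6 to 1 without moderation), prostanoid (3 to 6) and macrophage and MHC class II (3 to 5) with lymphocyte cytokines as background genes, and epithelial and myeloid growth cytokines (3 to 1 without moderation), beside the chemokine and lymphocyte cytokine lists, which moved between 0 and 2. Of 1046 results for 81 named genes, 976 kept their call, 53 lost one, 17 gained one and none changed direction. The changes fell on 24 of the 81 genes, and many of the others lie far from the threshold. Without moderation, Ptger4, Tnf, Tyrobp, Tgfb3, C1qa, C1qb, C3ar1, C3, C1s, Tlr1, Tlr2, Elk1, Csf1, Ccl21a and Il15 were among 19 genes that lost their call. With a threshold at the mean plus 3 SD of the background genes, Ptger4, Tnf, C1qb and C3ar1 lost their call, and so did Ptger4 at the median plus 3 MAD. No paired analysis was possible because the samples form 1 group. With 3 samples and thresholds of 7.75 to 15.3 probe counts, Ptger4 had the lowest mean called above background, 44.97 normalized counts. Without vehicle replicate 2, C1ra, Mrc1, C4a, Tgfb2, Hspb2, Alox5, Ptger1 and Ccr2 were also above the threshold.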
